A study of Mus musculus with 18 samples.

Results

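Lrrc8a, Lrrc8c and Lrrc8d, which encode subunits of volume-regulated anion channels, were followed in endothelial cells (ECs) of the mouse mammary gland and of breast tumours. In some subunit combinations these channels can carry cGAMP into ECs. The 3 genes were taken by name from a table of 16248 genes. Their grouping rests on what their products are known to do, although they were chosen with earlier results of these data known. Only transcript levels were measured here, not the transport of cGAMP. Bulk RNA sequencing (RNA-seq) had been done on 18 libraries of ECs from female mice of the FVB strain, in 6 groups of 3. The tissues were the fat pad of wild-type mice (called normal), tumours that MMTV-PyMT mice develop on their own, and implanted tumours, and each had been injected with PBS or with cGAMP, an agonist of STING, and collected 3 h later. In MMTV-PyMT mice a mammary promoter drives a viral oncogene in the mammary epithelium, so the ECs themselves are not the target of the transgene. Implanted tumours grew in FVB mice from tumour cells of such mice that were first expanded in culture and then placed in the mammary fat pad with Matrigel. By the methods of the study the agonist was 3'3'cGAMP in PBS, the controls received the same volume of PBS, and cells that were alive, negative for CD45 and positive for CD31 were sorted. The mice of a group came from independent experiments by the study's account, and which library came from which experiment was not stated, so p-values measure the spread between these libraries.

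LRRC8 proteins assemble in the plasma membrane into hexameric channels that open when a cell swells and release chloride and small organic solutes. LRRC8A is the subunit without which the channel does not reach the cell surface, and LRRC8B, LRRC8C, LRRC8D and LRRC8E join it in varying combinations that set what passes. Channels with LRRC8C or LRRC8E are known to pass cyclic dinucleotides such as cGAMP, and LRRC8C with LRRC8A is known as a cGAMP importer of vascular cells. LRRC8D is best known for letting larger uncharged or charged organic molecules through, among them the drug cisplatin. Inside the cell, cGAMP binds STING, which recruits the kinase TBK1 and leads to interferon expression.

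In the mouse genome (GRCm38, GENCODE M21), Lrrc8a (ENSMUSG00000007476.18) lies on chromosome 2 from 30237715 to 30263790. Lrrc8c (ENSMUSG00000054720.12, chromosome 5, 105519388 to 105613018) and Lrrc8d (ENSMUSG00000046079.16, chromosome 5, 105699969 to 105832436) are neighbours on the same strand, 86951 bases apart, and Lrrc8b ends 29314 bases before Lrrc8c. All are on the plus strand. Of the 4308 exon bases of Lrrc8a, 2853 (66.2%) are also exon of Gm28035. Gm28035 is annotated on the same strand, runs on past Lrrc8a and was listed in the table at 0.111 to 0.803 FPKM. FPKM are fragments per kilobase of exon, on the scale deposited for each library. How the counting treated reads in exons that belong to both genes was not stated, so the level of Lrrc8a relative to the other genes is uncertain. Lrrc8d shares 218 of its 12573 exon bases with the antisense gene Lrrc8dos and Lrrc8a shares 91 with the antisense gene 1700084E18Rik. No source says if counting was by strand, so reads from the shared bases cannot be told apart. No run of 75 bases of the Lrrc8c transcripts recurred in the transcripts of another gene.

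The stretches just upstream of the 3 genes are shown because the genes, including the neighbours Lrrc8c and Lrrc8d, differed in how they varied across the tissues. They are RefSeq windows (GRCm38.p6) from 250 bases before a start site to 50 after it, of which the part before an exon of a protein-coding GENCODE gene is printed, 5′ to 3′. Lrrc8d has windows at 2 start sites. Capitals mark matches, on either strand, to the GC box (GGGCGG), the CCAAT box (CCAAT), the core of the cAMP response element (TGACG) and the core of the hypoxia response element (ACGTG). In Lrrc8a the matches to the last 2 overlap on opposite strands.
Lrrc8a (chr2:30237519-30237714, plus strand): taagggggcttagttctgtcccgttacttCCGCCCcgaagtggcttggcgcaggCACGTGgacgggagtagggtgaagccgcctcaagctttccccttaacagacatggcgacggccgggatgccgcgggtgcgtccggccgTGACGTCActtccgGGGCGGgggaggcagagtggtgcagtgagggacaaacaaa
Lrrc8c (chr5:105519221-105519387, plus strand): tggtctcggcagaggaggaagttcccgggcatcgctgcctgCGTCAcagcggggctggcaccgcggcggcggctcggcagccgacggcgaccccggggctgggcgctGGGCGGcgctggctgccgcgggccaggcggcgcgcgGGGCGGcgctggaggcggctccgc
Lrrc8d (chr5:105699719-105699968, plus strand): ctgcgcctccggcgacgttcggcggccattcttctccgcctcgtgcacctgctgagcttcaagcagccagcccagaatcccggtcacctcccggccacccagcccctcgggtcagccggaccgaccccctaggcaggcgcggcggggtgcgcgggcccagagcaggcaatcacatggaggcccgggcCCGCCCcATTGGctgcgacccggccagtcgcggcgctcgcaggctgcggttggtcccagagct
Lrrc8d (chr5:105700560-105700788, plus strand): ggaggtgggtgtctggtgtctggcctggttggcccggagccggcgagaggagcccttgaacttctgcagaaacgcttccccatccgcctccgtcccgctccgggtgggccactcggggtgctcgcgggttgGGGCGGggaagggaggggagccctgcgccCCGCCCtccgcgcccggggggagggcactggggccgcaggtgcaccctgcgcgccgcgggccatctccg

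Every window of the 3 genes held a GC box, which 35.7% of all 32851 windows of the same length hold. The Lrrc8a window held 4, the Lrrc8c window 2, and the windows of Lrrc8d held 1 and 2. Lrrc8a and Lrrc8c held the cAMP response core, found in 20.8% of all windows, at 108 and 209 bases before the start site. The hypoxia response core (19.6% of all windows) was in the Lrrc8a window and the CCAAT box (37.4%) was in the first Lrrc8d window. None of these windows held an interferon-stimulated response element (GAAA, any 2 bases, GAAA, in 3.44% of all windows), a gamma-activated sequence (TTC, any 3 bases, GAA, in 8.3%) or an NF-kB site (GGG, any 2 bases, TTTCC, in 1.63%). These are matches of letters only, and a missing match says nothing about the factor. The windows were GC-rich, at 70.0% for Lrrc8a, 78.0% for Lrrc8c and 71.3% and 70.3% for Lrrc8d, against a median of 52.7% over all windows.

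Libraries held 9017475 to 11989742 reads, as recovered from the FPKM steps, and reads per library numbered 410 to 1196 for Lrrc8a, 982 to 3804 for Lrrc8c and 243 to 1479 for Lrrc8d. All 3 genes passed the filter of FPKM of at least 1 in at least 3 libraries, as did 13983 genes in all. The 6 endothelial markers (Pecam1, Cdh5, Kdr, Tek, Tie1 and Erg) were present in every library and summed to 584 to 1531 FPKM. Markers of other cells were present too, in spite of the sort. The 5 epithelial markers summed to 282.5 to 376 FPKM in normal ECs, 561 to 861 in MMTV-PyMT ECs and 241 to 521 in implanted tumour ECs, and the 6 mural and fibroblast markers to 667 to 931, 324 to 450 and 396 to 869. The 6 leukocyte markers summed to 16.9 to 64.0 in 17 libraries and to 212.3 in implanted cGAMP 2. The library implanted cGAMP 1 had the highest endothelial sum, 1531, and the lowest epithelial sum, 241. Their part in the results on the LRRC8 genes was not tested, and in bulk libraries fewer cells of a type cannot be told apart from less RNA per cell.

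Lrrc8c was the most abundant of the 3 transcripts per length in 14 of 18 libraries, Lrrc8a stayed within about a 2.18-fold range over all libraries, and Lrrc8d was the lowest in all 18 and varied the most, 5.52-fold. Lrrc8a, the obligatory subunit, was at 18.2, 22.5 and 23.5 FPKM in normal ECs with PBS and at 22.9, 24.7 and 23.2 with cGAMP. In MMTV-PyMT ECs it was at 15.8, 16.0 and 15.6 FPKM with PBS and at 16.2, 15.4 and 16.9 with cGAMP. In implanted tumour ECs it was at 18.7, 24.6 and 20.8 FPKM with PBS and at 16.2, 11.3 and 13.7 with cGAMP. In the order of mean levels, normal cGAMP, normal PBS and implanted PBS overlapped each other, and every library of these groups was above every library of MMTV-PyMT cGAMP, MMTV-PyMT PBS and implanted cGAMP, whose ranges also overlapped.

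Lrrc8c, the subunit tied to cGAMP import in vascular cells, was at 36.0, 39.1 and 45.9 FPKM in normal ECs with PBS and at 31.3, 27.4 and 34.8 with cGAMP. In MMTV-PyMT ECs it was at 15.1, 11.8 and 12.3 FPKM with PBS and at 15.8, 20.0 and 19.4 with cGAMP. In implanted tumour ECs it was at 33.3, 36.9 and 31.4 FPKM with PBS and at 51.3, 31.7 and 33.0 with cGAMP, where the first library stood above the other two. All 6 MMTV-PyMT libraries were below all 12 others, and within those 12 the groups next to each other in the order of means overlapped.

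Lrrc8d, the subunit of channels for larger organic solutes, was at 2.07, 2.44 and 1.78 FPKM in normal ECs with PBS and at 3.52, 5.22 and 4.36 with cGAMP. In MMTV-PyMT ECs it was at 7.30, 8.29 and 9.26 FPKM with PBS and at 9.84, 6.58 and 7.90 with cGAMP. In implanted tumour ECs it was at 6.39, 5.398 and 6.37 FPKM with PBS and at 5.71, 5.89 and 4.44 with cGAMP. Under PBS the order by mean was MMTV-PyMT, implanted and normal, the reverse of the order of Lrrc8c, and normal ECs with PBS were below every other library. Across the 18 libraries log2 levels of Lrrc8c and Lrrc8d had a Pearson correlation of -0.73, Lrrc8a and Lrrc8d of -0.48 and Lrrc8a and Lrrc8c of 0.40, as a description of libraries that share tissue and treatment.

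**Figure D1:**
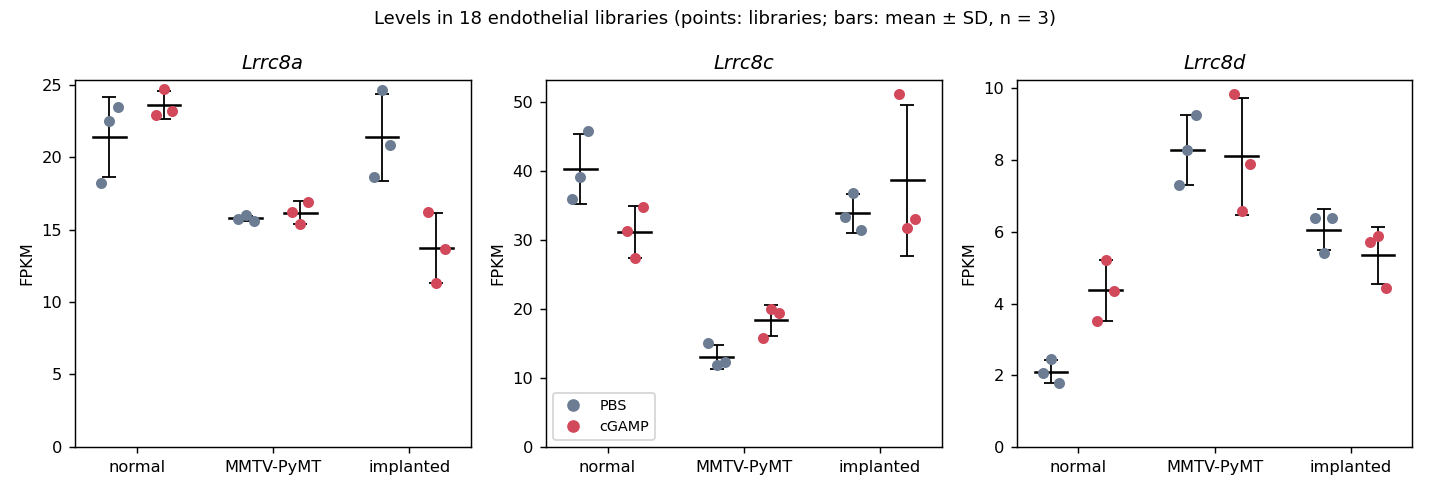
FPKM of Lrrc8a, Lrrc8c and Lrrc8d (vertical axes, linear and starting at 0) in the 3 tissues under PBS (grey) and cGAMP (red). Points are libraries, and lines with bars are means and SD of 3 libraries. Lrrc8c is lowest in MMTV-PyMT ECs, Lrrc8d is lowest in normal ECs with PBS, and Lrrc8a is lowest in implanted tumour ECs with cGAMP.

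Under PBS, the ECs of spontaneous tumours differed from those of the normal fat pad in all 3 genes, with Lrrc8c and Lrrc8a lower and Lrrc8d higher. Changes refer to log2(FPKM + 1), a scale that makes the change of low genes look smaller than it is, with SE and p adjusted over all 13983 genes by limma. Lrrc8c was at 13.1 ± 1.77 FPKM (SD, n = 3) against 40.3 ± 5.04 (SD, n = 3), a log2 change of -1.55 (SE 0.16, limma adjusted p = 8.68e-07). Lrrc8d was at 8.28 ± 0.981 FPKM (SD, n = 3) against 2.10 ± 0.330 (SD, n = 3), a log2 change of 1.58 (SE 0.15, limma adjusted p = 3.24e-07). Lrrc8a fell less, by 0.41 on the log2 scale (SE 0.12, limma adjusted p = 0.00811), and its groups did not overlap. For no comparison is the share of all genes with groups that do not overlap given here. Such separation of 3 from 3 libraries is therefore a description and adds nothing to a call. Of all genes tested, 56.5% passed in this comparison (29.8% higher, 26.6% lower), so the count of 3 of 3 is read against that background. The MMTV-PyMT libraries also had a higher sum of the epithelial markers and lower sums of the endothelial and of the mural and fibroblast markers. Within the last list Acta2, Rgs5 and Pdgfrb had lower means. Means were higher for Col1a1 (90.5 against 33.8 FPKM), Col1a2 (34.2 against 21.5) and Pdgfra (3.31 against 2.33). Cdh5 (291.3 against 291.4) and Krt14 (23.3 against 23.1) were level, unlike the rest of their lists. When libraries were scaled to their endothelial markers, a choice made after seeing the data, Lrrc8c stayed lower (-1.14, limma adjusted p = 5.44e-07) and Lrrc8d stayed higher (1.98, limma adjusted p = 2.44e-06), whereas Lrrc8a came to 0.01 (limma adjusted p = 0.956).

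In implanted tumours under PBS, only Lrrc8d of the 3 genes was called against normal ECs, where 48.7% of all genes were (25% higher, 23.6% lower). It was 2.28-fold higher on the FPKM + 1 scale (log2 change 1.19, SE 0.15, limma adjusted p = 6.76e-06), and every implanted library was above every normal one. Lrrc8c came to -0.24 (SE 0.16, limma adjusted p = 0.227), with overlapping groups, and was called lower when libraries were scaled to total reads (-0.43, limma adjusted p = 0.0172) or to endothelial markers (-0.42, limma adjusted p = 0.00954). Lrrc8a came to -0.0026 (95% interval -0.25 to 0.25, limma adjusted p = 0.988).

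Between the tumours under PBS, implanted tumour ECs had 2.49-fold more Lrrc8c on the FPKM + 1 scale than MMTV-PyMT ECs (log2 change 1.31, SE 0.16, limma adjusted p = 1.06e-05), with 31.4 to 36.9 against 11.8 to 15.1 FPKM. Lrrc8a was higher in implanted tumours as well (0.41, SE 0.12, limma adjusted p = 0.0112), whereas Lrrc8d was lower (-0.39, SE 0.15, limma adjusted p = 0.0388). The comparison called 45.5% of all genes (20.8% higher, 24.6% lower). Without implanted PBS 2, which had the highest Lrrc8a of its group, Lrrc8a came to 0.30 (limma adjusted p = 0.068), and with scaling to endothelial markers it came to -0.18 (limma adjusted p = 0.267). The call of Lrrc8d was lost without any 1 of implanted PBS 1, 2 or 3 or of MMTV-PyMT PBS 2 or 3 (-0.43 to -0.32, limma adjusted p from 0.0532 to 0.143).

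After cGAMP, Lrrc8d passed the test in normal ECs, Lrrc8a in implanted tumours and none of the 3 genes in MMTV-PyMT ECs. In normal ECs, Lrrc8d rose, from 2.10 ± 0.330 to 4.37 ± 0.852 FPKM (SD, n = 3 each), with a log2 change of 0.79 (SE 0.15, limma adjusted p = 0.000852), and all cGAMP libraries lay above all PBS libraries. It was 1 of 3 genes called in a comparison that called 31.9% of all genes (13.7% higher, 18.2% lower). Lrrc8c was lower in every cGAMP library than in any PBS library, at 31.2 ± 3.73 against 40.3 ± 5.04 FPKM (SD, n = 3 each), a separation given as a description only. Its log2 change of -0.36 (SE 0.16) missed the threshold with limma adjusted p = 0.096. It passed when the fit held the normal libraries alone (limma adjusted p = 0.0491) and without implanted cGAMP 1 (limma adjusted p = 0.0284), with the same log2 change in both. Lrrc8a came to 0.14 (SE 0.12, limma adjusted p = 0.389).

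In implanted tumour ECs, Lrrc8a fell after cGAMP, from 21.4 ± 3.02 to 13.7 ± 2.45 FPKM (SD, n = 3 each). The log2 change was -0.61 (SE 0.12, limma adjusted p = 0.000752), with 11.3 to 16.2 FPKM against 18.7 to 24.6 FPKM and no overlap. It was again 1 of 3 genes called, where 39.1% of all genes were (20.3% higher, 18.8% lower). Leaving out any 1 of the 18 libraries left Lrrc8a between -0.73 and -0.48, with limma adjusted p of at most 0.00557, and scaling to endothelial markers gave -0.82 (limma adjusted p = 0.000264). The mural and fibroblast markers summed to 868.7 and 865 FPKM in implanted cGAMP 1 and 2 and to 395.5 in implanted cGAMP 3, against 437.9 to 441.3 with PBS, and their part in the fall was not tested. Lrrc8c came to 0.16 (SE 0.16, limma adjusted p = 0.465) and turned to -0.06 without implanted cGAMP 1, the library with the most endothelial markers. Lrrc8d came to -0.16 (SE 0.15, limma adjusted p = 0.421). Scaling to total reads, which shifted the median of all genes by -0.23 in this comparison, turned Lrrc8c to -0.16 (limma adjusted p = 0.359) and gave Lrrc8d a called fall of 0.42 on the log2 scale (limma adjusted p = 0.0274).

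In MMTV-PyMT ECs, none of the 3 genes was called by limma after cGAMP, where 12% of all genes were (7.42% higher, 4.57% lower). Before adjustment Lrrc8c had a limma p under 0.05, and the share of all genes under that unadjusted threshold is not given here. Lrrc8c was at 18.4 ± 2.25 FPKM with cGAMP against 13.1 ± 1.77 with PBS (SD, n = 3 each), and the groups did not overlap, again as a description only. Its log2 change of 0.46 (SE 0.16, limma adjusted p = 0.0717) passed with limma-voom on recovered reads (0.49, adjusted p = 0.0474), in the fit of the MMTV-PyMT libraries alone (limma adjusted p = 0.0462) and without either implanted cGAMP 1 or MMTV-PyMT cGAMP 1 (limma adjusted p = 0.0161 and 0.0444). Scaled to endothelial markers it came to 0.16 (limma adjusted p = 0.274), and the endothelial sum of these groups was 665 to 919 FPKM with cGAMP against 584 to 723 with PBS. Lrrc8a came to 0.03 (95% interval -0.22 to 0.28) and Lrrc8d to -0.04 (95% interval -0.35 to 0.27).

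**Figure D2:**
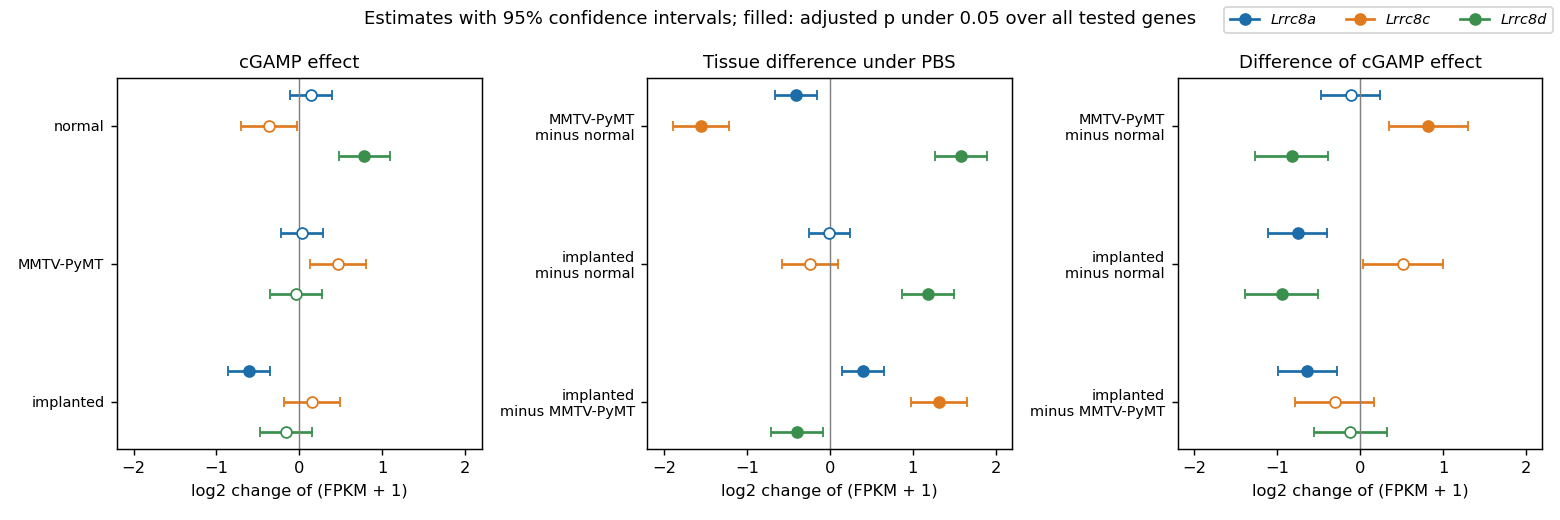
Log2 changes of (FPKM + 1) with 95% confidence intervals for Lrrc8a (blue), Lrrc8c (orange) and Lrrc8d (green), in the 3 cGAMP effects, the 3 tissue differences under PBS and the 3 differences of the cGAMP effect between tissues. Filled points have limma adjusted p under 0.05. Lrrc8c and Lrrc8d lie on opposite sides of 0 in each tissue difference that calls both.

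The cGAMP effects themselves differed between tissues for each of the 3 genes, as tested by the difference of effects in the same fit. The effect on Lrrc8a in implanted tumours was below that in normal ECs by 0.75 on the log2 scale (SE 0.17, limma adjusted p = 0.00541). It was also below that in MMTV-PyMT ECs, by -0.64 (SE 0.17, limma adjusted p = 0.0213), a call that was lost without implanted PBS 2 (-0.54, limma adjusted p = 0.0604), without MMTV-PyMT cGAMP 3 (-0.61, limma adjusted p = 0.0529) and with scaling to endothelial markers (-0.55, limma adjusted p = 0.152). These comparisons called 18.6% (12.5% higher, 6.09% lower) and 11.1% (7.34% higher, 3.72% lower) of all genes.

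The rise of Lrrc8d in normal ECs differed from its effect in implanted tumours (-0.94, SE 0.21, limma adjusted p = 0.00489) and from that in MMTV-PyMT ECs (-0.82, SE 0.21, limma adjusted p = 0.0237). The latter comparison called 8.37% of all genes (5.48% higher, 2.9% lower). That call for Lrrc8d was lost without any 1 of normal PBS 3, normal cGAMP 2, MMTV-PyMT PBS 3, MMTV-PyMT cGAMP 2 or MMTV-PyMT cGAMP 3 (-0.81 to -0.70, limma adjusted p from 0.0562 to 0.0675). For Lrrc8c the effects in normal and MMTV-PyMT ECs, neither of them called, were -0.36 and 0.46, and their difference was 0.83 (SE 0.23, limma adjusted p = 0.0346). It did not pass without any 1 of 8 libraries, namely normal PBS 2 or 3, normal cGAMP 1 or 2, MMTV-PyMT PBS 2 or 3 and MMTV-PyMT cGAMP 2 or 3 (0.73 to 0.84, limma adjusted p from 0.0537 to 0.0927), nor with scaling to endothelial markers (0.42, limma adjusted p = 0.124).

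Ratios between the subunit transcripts within a library do not depend on how the library was scaled, and they differed between tissues. Lrrc8c to Lrrc8d was 19.7 ± 5.25 in normal ECs with PBS (SD, n = 3), 5.65 ± 1.03 in implanted tumours and 1.61 ± 0.403 in MMTV-PyMT ECs. With cGAMP the same ratio was 7.37 ± 1.90, 7.27 ± 1.80 and 2.37 ± 0.717 (SD, n = 3 each). Normal and implanted groups did not overlap under PBS and overlapped under cGAMP. Tissues were compared over 12 libraries with both treatments by exact 2-sided permutation of tissue labels within treatment, and p-values were adjusted over 12 ratio tests. Lrrc8c to Lrrc8d was lower in MMTV-PyMT than in normal ECs by 2.63 on the log2 scale (exact permutation p = 0.005, adjusted p = 0.012) and higher in implanted than in MMTV-PyMT ECs by 1.73 (exact permutation p = 0.005, adjusted p = 0.012), where 0.005 is the smallest p the design allows. Implanted against normal ECs gave -0.90 (exact permutation p = 0.05, adjusted p = 0.0667), which came to an adjusted p of 0.045 in the same exact test without normal cGAMP 2 (-1.01) or implanted cGAMP 1 (-0.98). With cGAMP the mean log2 difference was -0.18 over tissues (exact permutation p = 0.545, adjusted p = 0.545), with -1.42 for normal, 0.54 for MMTV-PyMT and 0.35 for implanted.

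Lrrc8c to Lrrc8a, the pair known as a cGAMP importer, was 1.89 ± 0.130 in normal, 1.60 ± 0.162 in implanted and 0.828 ± 0.115 in MMTV-PyMT ECs with PBS, and 1.33 ± 0.200, 2.79 ± 0.372 and 1.14 ± 0.162 with cGAMP (SD, n = 3 each). MMTV-PyMT ECs were thus the only group with PBS in which Lrrc8a exceeded Lrrc8c in every library, subject to the shared exons of Lrrc8a. The ratio was higher in implanted than in MMTV-PyMT ECs by 1.12 on the log2 scale (exact permutation p = 0.005, adjusted p = 0.012) and lower in MMTV-PyMT than in normal ECs by 0.71 (exact permutation p = 0.015, adjusted p = 0.0257), which missed the threshold in the same exact test without normal cGAMP 1 or 3 (-0.69 and -0.66, adjusted p = 0.054 and 0.0563). MMTV-PyMT against normal was -1.20 under PBS and -0.215 under cGAMP, where the groups overlapped. By tissue, the log2 change with cGAMP was -0.52 for normal, 0.46 for MMTV-PyMT and 0.80 for implanted, and its mean over tissues, 0.25, gave an exact permutation p of 0.162 (adjusted p = 0.177). Implanted against normal ECs gave 0.42 (exact permutation p = 0.105, adjusted p = 0.126), with -0.25 under PBS and 1.08 under cGAMP.

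Lrrc8d to Lrrc8a was 0.0995 ± 0.0205 in normal, 0.289 ± 0.0634 in implanted and 0.525 ± 0.0650 in MMTV-PyMT ECs with PBS, and 0.185 ± 0.0292, 0.399 ± 0.106 and 0.501 ± 0.0939 with cGAMP (SD, n = 3 each). It was higher than in normal ECs in both tumours, with log2 differences of 1.93 for MMTV-PyMT and 1.32 for implanted (each with exact permutation p = 0.005, adjusted p = 0.012). Implanted tumours were below MMTV-PyMT by 0.61 on the log2 scale, as the difference of -0.61 gives (exact permutation p = 0.015, adjusted p = 0.0257), which missed the threshold in the same exact test without implanted PBS 2 (-0.52, adjusted p = 0.0563) or implanted cGAMP 3 (-0.54, adjusted p = 0.054). This difference was -0.88 under PBS and -0.34 under cGAMP, where the groups overlapped. Over the 3 tissues cGAMP raised this ratio by a mean of 0.43 on the log2 scale (exact permutation p = 0.0217, adjusted p = 0.0326), with 0.90 for normal, -0.08 for MMTV-PyMT and 0.46 for implanted. That call was lost in 9 of the 18 exact tests that left out 1 library, namely any of the 6 normal libraries, implanted PBS 2, implanted cGAMP 2 or MMTV-PyMT cGAMP 1 (0.36 to 0.47, adjusted p from 0.0513 to 0.0783).

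**Figure D3:**
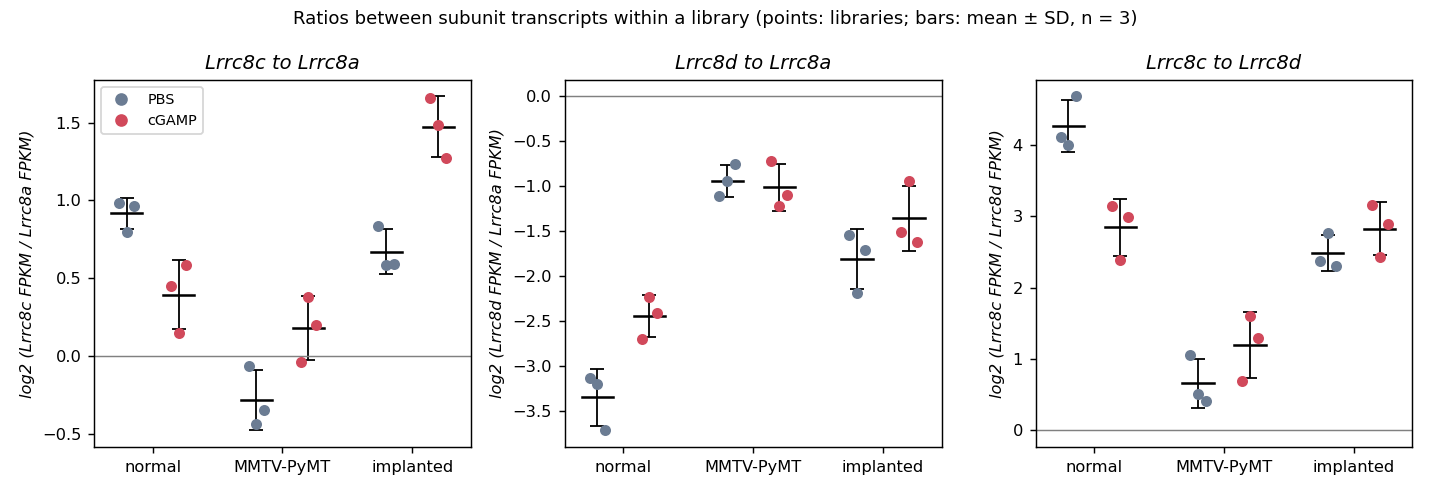
Log2 ratios of FPKM within a library for Lrrc8c to Lrrc8a, Lrrc8d to Lrrc8a and Lrrc8c to Lrrc8d (vertical axes) in the 3 tissues under PBS (grey) and cGAMP (red). Points are libraries, and lines with bars are means and SD of 3 libraries. Lrrc8c to Lrrc8d is highest in normal ECs with PBS and lowest in MMTV-PyMT ECs.

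Within the whole family of 5 genes, Lrrc8c made up 58.1% ± 1.99 of the summed FPKM in normal ECs with PBS, 47.1% ± 0.853 in implanted and 26.6% ± 3.10 in MMTV-PyMT ECs (SD, n = 3 each). Lrrc8a held a similar share under PBS, at 30.8% ± 1.42, 29.6% ± 2.67 and 32.2% ± 1.03, and was 20.3% ± 1.70 in implanted tumours with cGAMP (SD, n = 3 each). Lrrc8d made up 3.06% ± 0.634 in normal, 8.48% ± 1.32 in implanted and 16.9% ± 2.13 in MMTV-PyMT ECs with PBS (SD, n = 3 each). With cGAMP, Lrrc8c made up 45.7% ± 3.90 in normal, 56.4% ± 3.19 in implanted and 33.2% ± 4.29 in MMTV-PyMT ECs, and Lrrc8d 6.43% ± 1.31, 8.07% ± 1.96 and 14.6% ± 2.84 (SD, n = 3 each). The family sum was 69.3 ± 7.19 FPKM in normal, 71.9 ± 4.95 in implanted and 49.1 ± 1.09 in MMTV-PyMT ECs with PBS (SD, n = 3 each), and no MMTV-PyMT library reached the others.

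**Figure D4:**
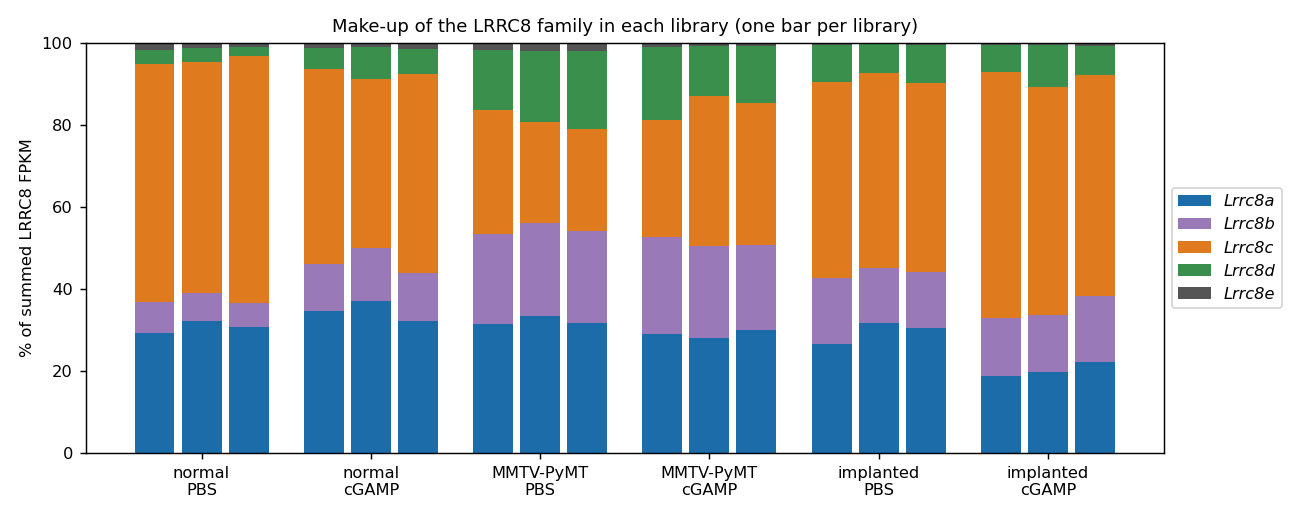
Share of each of the 5 LRRC8 genes in the summed LRRC8 FPKM (vertical axis, %) in each library (1 bar per library, 3 per group). The share of Lrrc8c is 58.1% in normal and 26.6% in MMTV-PyMT ECs with PBS, and the shares of Lrrc8b and Lrrc8d are larger in the tumours.

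Lrrc8b, the neighbour of Lrrc8c on the side away from Lrrc8d, was, like Lrrc8d, lowest in normal ECs with PBS. It was at 4.55, 4.76 and 4.49 FPKM in normal ECs with PBS and rose with cGAMP to 7.42, 8.46 and 8.45 (log2 change 0.70, SE 0.11, limma adjusted p = 0.000194). Under PBS it was higher than in normal ECs in MMTV-PyMT (log2 change 1.10, SE 0.11, limma adjusted p = 6.1e-07) and in implanted tumours (log2 change 1.01, SE 0.11, limma adjusted p = 1.63e-06), at 10.9 to 11.1 and 9.24 to 11.3 FPKM. In implanted tumours its cGAMP effect was -0.06 (limma adjusted p = 0.702), and it was called lower with scaling to total reads (-0.34, limma adjusted p = 0.00909). Lrrc8e, whose product also forms cGAMP-permeable channels, was at 0.288 to 1.11 FPKM on 10 to 55 reads, near the filter. Only normal PBS 1 (1.11), normal cGAMP 3 (1.07) and MMTV-PyMT PBS 3 (1.05) reached 1 FPKM. Lrrc8e was thus tested only through groups in which it was high, so its lower levels in other groups are given as a description. In MMTV-PyMT ECs it fell with cGAMP by 0.40 on the log2 scale (SE 0.11, limma adjusted p = 0.031), from 0.971 ± 0.0658 to 0.498 ± 0.112 FPKM (SD, n = 3 each). Under PBS, Lrrc8e was lower in implanted than in normal (-0.50, limma adjusted p = 0.00175) and MMTV-PyMT ECs (-0.55, limma adjusted p = 0.00102).

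Other proteins also move cyclic dinucleotides across the membrane or remove them, and 8 of 9 genes of that list were tested. After cGAMP the normal ECs had 2 of these genes higher and 1 lower, MMTV-PyMT ECs had 1 higher, and implanted tumours had 1 higher and 1 lower, against 31.9%, 12% and 39.1% of all genes called either way and with list medians of 0.14, -0.14 and -0.08 on the log2 scale against -0.04, -0.04 and -0.01 over all genes. Slc46a3, a transporter that can carry cyclic dinucleotides, rose in normal ECs (0.66, SE 0.15, limma adjusted p = 0.00364) and in implanted tumours (0.83, SE 0.15, limma adjusted p = 0.000434), where it reached 28.3 ± 5.82 FPKM (SD, n = 3), and came to 0.24 in MMTV-PyMT ECs (limma adjusted p = 0.333). P2rx7, an ATP-gated channel, fell in normal ECs by 0.42 (SE 0.13, limma adjusted p = 0.0189), a call lost with scaling to endothelial markers (-0.33, limma adjusted p = 0.316), and in implanted tumours by 0.58 on the log2 scale (SE 0.13, limma adjusted p = 0.0018). Gja1, which encodes the gap junction protein connexin 43, rose in normal (0.49, SE 0.14, limma adjusted p = 0.016) and MMTV-PyMT ECs (0.59, SE 0.14, limma adjusted p = 0.0132), and the latter call was lost with scaling to endothelial markers (0.28, limma adjusted p = 0.0812). The reduced folate carrier gene Slc19a1 came to 0.16 for normal, -0.16 for MMTV-PyMT and -0.09 for implanted tumour ECs, the exporter gene Abcc1 to 0.15, 0.07 and 0.03, and Enpp1, whose product degrades extracellular cGAMP of the mammalian linkage, to 0.14, -0.38 and -0.17, all without passing. Slc46a1 came to -0.23, -0.52 and -0.50 and the connexin gene Gjc1 to -0.07, -0.20 and 0.13, also without passing. Scaled to total reads, Slc46a1 was called lower in MMTV-PyMT and implanted ECs (-0.64 and -0.63) and Gja1 and Abcc1 lower in implanted tumours (-0.38 and -0.22).

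Under PBS, 6 of these 8 genes were higher and 2 lower in MMTV-PyMT than in normal ECs, 4 were higher and 1 lower in implanted tumours than in normal ECs, and 3 were higher and 3 lower in implanted than in MMTV-PyMT tumours, where 56.5%, 48.7% and 45.5% of all genes were called. Scaled to endothelial markers these counts were 6 higher and 1 lower, 2 higher and 1 lower, and 1 higher and 4 lower. Gja1, at 64.3 to 77.4 FPKM in implanted tumours with PBS against 20.3 to 23.3 in normal ECs, was more abundant per length than Lrrc8c in each implanted tumour library. In normal ECs with PBS, Lrrc8c exceeded Gja1, and each of the other 7 genes had a mean at or below 12.1 FPKM.

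**Figure D5:**
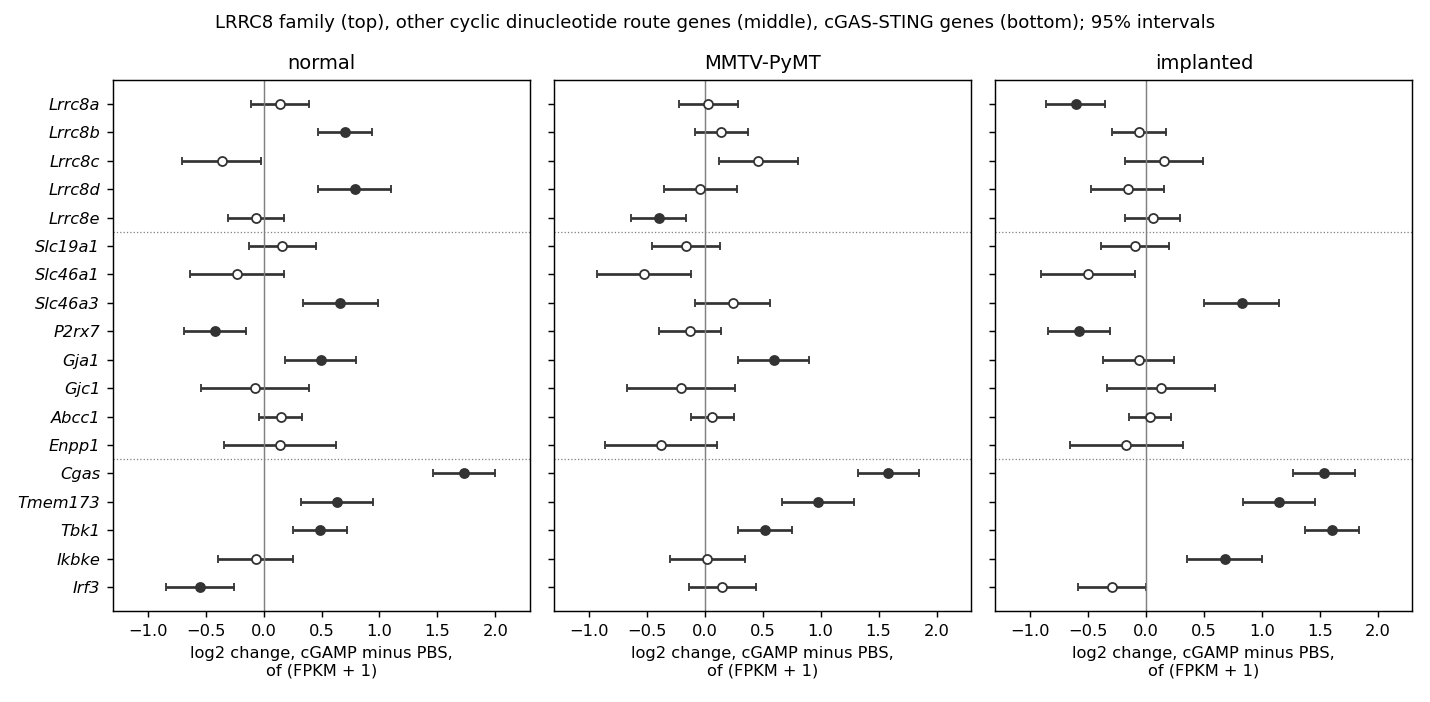
Log2 change of (FPKM + 1) with cGAMP, with 95% confidence intervals, in normal, MMTV-PyMT and implanted tumour ECs for the LRRC8 family, other genes of cyclic dinucleotide routes, and genes of cGAS-STING signalling. Filled points have limma adjusted p under 0.05. Lrrc8d is filled in normal ECs and Lrrc8a in implanted tumours, while Cgas and Tmem173 are filled and above 0 in all 3 tissues.

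Of the 5 genes of cGAMP synthesis and STING signalling, 3 were higher and 1 lower with cGAMP in normal ECs, 3 were higher in MMTV-PyMT ECs and 4 in implanted tumours, where 31.9%, 12% and 39.1% of all genes were called. Cgas, the cGAMP synthase, rose in every tissue on the log2 scale, by 1.73 for normal, 1.59 for MMTV-PyMT and 1.54 for implanted (limma adjusted p = 7.3e-08, 1.35e-07 and 7.72e-08), and Tmem173, which encodes STING, rose by 0.64, 0.98 and 1.15 (limma adjusted p = 0.00378, 0.000237 and 1.26e-05). Tbk1 rose by 0.49 in normal ECs (limma adjusted p = 0.00329), by 0.52 in MMTV-PyMT ECs (limma adjusted p = 0.00556) and by 1.60 in implanted tumours (limma adjusted p = 1.23e-08), and Irf3 fell in normal ECs by 0.55 on the log2 scale (limma adjusted p = 0.00663). With scaling to endothelial markers the calls of Tbk1 in MMTV-PyMT ECs (0.22, limma adjusted p = 0.196) and of Irf3 in normal ECs (-0.46, limma adjusted p = 0.182) were lost. Scaled to total reads, Irf3 was called lower in implanted tumours as well (-0.56, limma adjusted p = 0.00484), which gave 4 higher and 1 lower there. None of the LRRC8 genes was called in all 3 tissues, and no more than the 12% of all genes called in MMTV-PyMT ECs could be.

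Of 11 genes of cell volume regulation, the process for which LRRC8 channels are best known, 1 was higher and 3 lower in normal ECs, 1 higher in MMTV-PyMT ECs, and 5 higher and 2 lower in implanted tumours after cGAMP, with medians of -0.16, 0.15 and 0.14 on the log2 scale and 31.9%, 12% and 39.1% of all genes called. Scaled to total reads, the list had 1 higher and 3 lower in MMTV-PyMT ECs and 4 higher and 4 lower in implanted tumours. In normal ECs the largest changes were in the sodium-potassium-chloride cotransporter gene Slc12a2 (0.80, limma adjusted p = 2.74e-05), the inositol transporter gene Slc5a3 (-0.74, limma adjusted p = 0.000609) and Pacc1, a proton-activated chloride channel gene (-0.70, limma adjusted p = 0.000139). In implanted tumours they were in the potassium-chloride cotransporter gene Slc12a7 (0.93, limma adjusted p = 0.000211), Slc5a3 (-0.70, limma adjusted p = 0.000572) and Slc12a4, another potassium-chloride cotransporter gene (0.65, limma adjusted p = 0.00215). In MMTV-PyMT ECs, Slc12a4 rose (0.70, limma adjusted p = 0.0045), and Slc12a7 and Slc5a3 came to 0.46 and -0.41 without passing, although Slc5a3 was called lower there with scaling to total reads (-0.54, limma adjusted p = 0.0132), as were Slc12a2 (-0.45) and Pacc1 (-0.45). Under PBS, 8 of the 11 were lower and 2 higher in MMTV-PyMT than in normal ECs, where 26.6% of all genes were lower and 29.8% higher, and 4 were lower and 2 higher with scaling to endothelial markers.

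Of 4 genes for endothelial partners of LRRC8A, Cav1, the caveolin gene, fell in normal ECs by 0.63 on the log2 scale (limma adjusted p = 0.00299), Nos3, the endothelial nitric oxide synthase gene, rose in MMTV-PyMT ECs (0.75, limma adjusted p = 0.0425) and the adaptor gene Grb2 rose in implanted tumours (0.28, limma adjusted p = 0.0199), where Lrrc8a fell. Each tissue thus had 1 of 4 genes called, where 31.9%, 12% and 39.1% of all genes were called in normal, MMTV-PyMT and implanted ECs. The call of Grb2 was lost with scaling to total reads (-0.03, limma adjusted p = 0.81) and that of Nos3 with scaling to endothelial markers (0.45, limma adjusted p = 0.0785). Nos3 and Akt1 came to -0.51 and -0.22 in normal ECs, Grb2 and Akt1 to 0.14 and 0.06 in MMTV-PyMT ECs, and Cav1 and Akt1 to -0.19 and -0.07 in implanted tumours. In implanted tumours Cav1 was called lower with scaling to total reads (-0.51, limma adjusted p = 0.00219) and to endothelial markers (-0.43, limma adjusted p = 0.0304), and Akt1 with scaling to total reads (-0.39, limma adjusted p = 0.00083). Of 7 genes of other large-pore channels, 2 were tested, and Panx1 rose (0.46, limma adjusted p = 0.0279) while Calhm2 fell by 0.78 on the log2 scale (limma adjusted p = 0.000217) in normal ECs. Calhm2 came to 0.03 in MMTV-PyMT ECs and fell by 0.35 in implanted tumours (limma adjusted p = 0.0356), and Panx1 came to 0.11 and 0.38 without passing. These calls are read against the same 31.9%, 12% and 39.1% of all genes. The call of Panx1 in normal ECs was lost with scaling to endothelial markers (0.53, limma adjusted p = 0.0562).

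The tested genes whose log2 levels followed each LRRC8 gene most closely differed between the 3. Over 18 libraries Lrrc8c was followed by Dennd5a (Pearson r = 0.98), Mmrn2, Itpkb, Pdgfd and Itga9 (0.96), and over the 6 group means by Prex2 (r = 0.998), Dennd5a, Gm17501, Mmrn2 and Adra2a. Mmrn2 encodes a protein of the endothelial extracellular matrix. Lrrc8d was followed by Igsf3 (r = 0.94), Arhgap21, Ykt6, Plppr3 and Ifi27 (0.93) over libraries and by 3010003L21Rik (0.99), Cyp51, Psmd1, Ifi27 and Nfxl1 over group means. Lrrc8a was followed less closely, by Acsf2 (r = 0.91), Klf13, Coro2b, Cep120 and Depdc5 (0.85) over libraries and by Gm24282 (0.99), Map4k3, Acsf2, Lrp3 and Riox2 over group means. These are the highest of 13983 correlations over points that share tissue, treatment and cell make-up, and are given as a description.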

How the data were processed

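Endothelial cells were sorted as Sytox Green-negative, CD45-negative and CD31-positive events, and libraries were prepared with the directional NEBNext Ultra II kit and sequenced as paired ends. Per the submitters' notes and the methods of the study, the authors used FastQC, STAR 2.7, the mm10 genome and HTSeq. The authors deposited 1 table of FPKM values, and how FPKM were made was not given in the sources used here. The deposited scaling did not follow the recovered reads of a library. Relative to its denominator, recovered reads were 0.876 to 0.934 in normal PBS and 1.22 to 1.38 in implanted cGAMP libraries. These figures are relative to the geometric mean of all libraries. For 6 columns the header names no tissue, and they were assigned to normal fat pad, the single tissue that the remaining headers do not name. FPKM values were whole multiples of 1 read for 16164 genes (99.48%, within 0.05 reads), with GENCODE M21 exon lengths for 15779 of 16018 matched genes.

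Genes that reached 1 FPKM in 3 or more of the 18 libraries were tested as log2(FPKM + 1), with 1 mean per group, using limma 3.58.1 (R 4.3.3, eBayes with trend, 2-sided) and Benjamini-Hochberg adjustment over 13983 genes for each of 9 comparisons. A gene was called at an adjusted p under 0.05. Ratios were tested by exact permutation (8000 or 400 arrangements). The scripts were tested on simulated data. Alternatives were another pseudocount (0.1, and 1 for ratios), no filter, scaling to total reads, a replicate block, limma-voom on recovered reads, only the groups compared, leaving out each library and, added after seeing the data, scaling to the endothelial markers. Of the cell volume list, 2 genes are not reported here. Members and gene lists were chosen with earlier results of these data known. Values are given for the members, the other LRRC8 genes, all tested genes of the cyclic dinucleotide list and the 3 largest changes of each other list per cGAMP comparison, and the 5 most similar genes by Pearson correlation.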

Additional observations from a re-analysis of the deposited data

Results flagged for a closer look

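For each of the 3 LRRC8 genes the response to cGAMP differed between tissues by the limma test of the difference of effects (log2 scale, adjusted over all genes). Lrrc8a had a difference of -0.75 between implanted tumours and normal ECs and of -0.64 between implanted and MMTV-PyMT tumours. Lrrc8c had a difference of 0.83 and Lrrc8d of -0.82 between MMTV-PyMT and normal ECs, and Lrrc8d of -0.94 between implanted tumours and normal ECs. The other gene of the family with such a difference was Lrrc8b, with -0.56 for MMTV-PyMT and -0.76 for implanted tumours against normal ECs. Of all genes, 8.37% were called between MMTV-PyMT and normal, 18.6% between implanted and normal and 11.1% between implanted and MMTV-PyMT ECs. Among 18 fits without 1 library, the call between MMTV-PyMT and normal ECs was lost in 8 for Lrrc8c and 5 for Lrrc8d. The call of Lrrc8a between the tumours was lost in 2.

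Among the genes of the other lists, the differences between MMTV-PyMT and normal ECs were 0.70 for Irf3, -1.11 for Slc12a2, 0.94 for Slc12a7, 0.81 for Calhm2 and 1.26 for Nos3. Between implanted tumours and normal ECs they were 1.12 for Tbk1, 0.75 for Ikbke, 0.71 for Wnk1, 0.68 for Oxsr1, -0.91 for Slc12a2, 1.41 for Slc12a7 and 0.39 for Grb2. Between implanted and MMTV-PyMT tumours they were -0.66 for Gja1, 1.09 for Tbk1 and 0.37 for Oxsr1. With scaling to total reads the differences no longer passed for Irf3 between MMTV-PyMT and normal ECs, for Ikbke, Wnk1 and Grb2 between implanted tumours and normal ECs and for Oxsr1 between the tumours. With scaling to endothelial markers these did not pass either, nor did Lrrc8c, Slc12a7 (adjusted p = 0.0672), Calhm2 (0.107) and Nos3 (0.0533) between MMTV-PyMT and normal ECs, Oxsr1 (0.292) between implanted tumours and normal ECs and Lrrc8a between the tumours. Groups of 3 libraries were not searched for outlying libraries.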

How the results depend on the processing

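Of 39 results on the 3 LRRC8 genes and their ratios, 28 kept their direction and their side of the threshold in every alternative other than leaving out a library, and 23 did so whenever any 1 library was left out. A pseudocount of 0.1 and no filter changed none of the 27 gene results, and a pseudocount of 1 changed none of the 12 ratio results. Values are log2 changes, with limma adjusted p over all genes, and where no reason is given the cause was not tested.

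With scaling to total reads, the cGAMP effects on Lrrc8a in MMTV-PyMT ECs (-0.0993) and on Lrrc8c in implanted tumours (-0.155) changed sign, and Lrrc8d after cGAMP in implanted tumours (-0.4205, adjusted p = 0.0274) and Lrrc8c in implanted against normal ECs under PBS (-0.4257, adjusted p = 0.0172) passed. This scaling moved the median of all genes by -0.11 and -0.23 for cGAMP in MMTV-PyMT and implanted ECs. It took calls after cGAMP from 1676 (61.9% higher) to 3338 (27.4% higher) genes in MMTV-PyMT ECs, and the share of higher calls from 52% to 22.2% in implanted tumours. Under PBS that share went from 51.4% to 34.2% in implanted against normal and from 45.8% to 30.7% in implanted against MMTV-PyMT ECs, and in the differences of effect from 65.4% to 38.8%, from 67.3% to 26.1% and from 66.4% to 37.3%. Limma-voom on recovered reads called Lrrc8c after cGAMP in MMTV-PyMT ECs (0.4929, adjusted p = 0.0474), among 1849 genes called there. A fit of only the groups compared called it too (0.4639, adjusted p = 0.0462), as well as Lrrc8c in normal ECs (-0.3614, adjusted p = 0.0491).

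Scaling to endothelial markers, chosen after seeing the data, changed the sign of Lrrc8a for cGAMP in MMTV-PyMT ECs (-0.2727), for MMTV-PyMT against normal (0.0096) and for implanted against MMTV-PyMT ECs under PBS (-0.1826), and of Lrrc8c for cGAMP in implanted tumours (-0.0793). Lrrc8c in implanted against normal ECs passed (-0.4152, adjusted p = 0.00954), and the difference of effect no longer passed for Lrrc8c between MMTV-PyMT and normal (0.421, adjusted p = 0.124) and for Lrrc8a between both tumours (-0.5514, adjusted p = 0.152). It shifted the median of all genes by -0.48 to 0.34 over the 9 comparisons, and the share of higher calls from 43.1% to 67.9%, from 61.9% to 26.6% and from 52% to 37.5% for cGAMP in normal, MMTV-PyMT and implanted tissue, from 52.8% to 77.7%, from 51.4% to 34.6% and from 45.8% to 9.9% under PBS, and from 65.4% to 15.9%, from 67.3% to 35.9% and from 66.4% to 79.2% in the differences of effect. Calls dropped from 4458 genes to 1594 higher and 753 lower for cGAMP in normal ECs, and in the differences of effect from 1171 to 102 and 540, from 2602 to 383 and 684 and from 1546 to 418 and 110. The 6 summed markers did not move together across tissues. From normal to implanted ECs with PBS, the means of Cdh5 (291 to 444 FPKM), Kdr and Tie1 rose. Those of Tek (88.3 to 22.4 FPKM), Pecam1 and Erg fell.

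Replicate numbers are shared by the groups, but same-numbered libraries did not deviate together (r from -0.345 to 0.2936 over 45 pairs, 8 of them above 0.1). With the replicate number as a block, Lrrc8d in implanted against MMTV-PyMT ECs under PBS (-0.3937, adjusted p = 0.0557) and the difference of the Lrrc8c effect between MMTV-PyMT and normal ECs (0.8253, adjusted p = 0.0514) no longer passed, and the other 25 gene results kept their calls. Over all genes the block called 4207, 1483 and 5254 genes after cGAMP in place of 4458, 1676 and 5464 (normal, MMTV-PyMT, implanted).

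Leaving out 1 library at a time changed a call or a sign in 16 results. For cGAMP these ranged from -0.4426 to -0.2672 for Lrrc8c in normal ECs, from -0.0003 to 0.0653 for Lrrc8a, from 0.4015 to 0.5648 for Lrrc8c and from -0.1711 to 0.0867 for Lrrc8d in MMTV-PyMT ECs, and from -0.0596 to 0.2781 for Lrrc8c in implanted tumours. Under PBS, Lrrc8a ranged from -0.1086 to 0.0861 in implanted against normal and from 0.303 to 0.494 in implanted against MMTV-PyMT ECs, where Lrrc8d ranged from -0.472 to -0.3189. Differences of effect between MMTV-PyMT and normal ECs ranged from 0.7311 to 0.9262 for Lrrc8c and from -0.9567 to -0.6989 for Lrrc8d, and between implanted and MMTV-PyMT ECs from -0.7571 to -0.5155 for Lrrc8a and from -0.2442 to 0.0136 for Lrrc8d. The ratios ranged from -0.7674 to -0.652 for Lrrc8c to Lrrc8a in MMTV-PyMT against normal ECs, from 0.3579 to 0.4719 for Lrrc8d to Lrrc8a with cGAMP, from -0.7135 to -0.516 for Lrrc8d to Lrrc8a in implanted against MMTV-PyMT ECs and from -1.0137 to -0.7954 for Lrrc8c to Lrrc8d in implanted against normal ECs. With 3 libraries a group and 10 to 55 reads a library, changes of Lrrc8e are the least precise of the family.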
